A study of Mus musculus with 4 samples.

Results

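The D10Wsu102e locus is a 140 kb interval of mouse chromosome 10 (chr10:82820001-82960000, mm9) from which 19234 of the 4906138 listed MILI-bound sequences came, or 0.392% of the list. A sequence was counted as a member when its 5′ end lay inside the interval. The interval was chosen by the number of listed sequences, since its neighbouring 20 kb windows each held 1000 or more, so the number of members, their density against other windows and their excess over flanking sequence describe that choice and test nothing. D10Wsu102e is a protein-coding gene whose annotated coding sequence is short and whose annotated 3′ UTR, in GENCODE release M21, is 122583 nt long.

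The list was made from RNA bound to MILI (Piwil2) from C57BL/6 testes taken 14 days after birth, in 4 libraries: 2 from Tdrd9-/- mice, which lack the helicase TDRD9, and 2 from Tdrd9+/- mice, so that the controls were heterozygous and not wild type. How the Tdrd9 allele was made and how many mice entered a library are not stated in the labels. The table holds neither read counts nor library labels. The genotypes were therefore not compared, no replicate error could be computed, the depth per library is unknown, and a sequence read once counts as much as an abundant one. Ranges in brackets after a share are exact 95% intervals (Clopper-Pearson) for counting distinct sequences, with no account of depth or of the overlap between sequences of 1 transcript. The list held sequences of 7 of 7 germ cell markers (149 for the lowest, Ddx4, to 586 for the highest, Zbtb16), 0 of 3 late spermatid markers (Prm1, Prm2 and Tnp2), and 3 of 4 somatic testis markers, where Star held 247 of 281 sequences, Sox9 27, Amh 7 and Cyp17a1 0. Across all 21901 protein-coding genes searched, the median was 19 sequences and the lower quartile 0. Most genes thus held sequences, and holding them marks no cell type by itself.

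MILI is a PIWI protein of the male germ line that carries piRNAs, small RNAs that guide the silencing of transposons. Primary piRNAs are cut from long single-stranded precursor transcripts, tend to begin with U, and have a 3′ end that is trimmed after loading. Before and early in meiosis many precursors are messenger RNAs, in which the 3′ UTR is the usual source. Secondary piRNAs arise when a piRNA-guided cut on the opposite strand sets a new 5′ end, which leaves partners that overlap by 10 nt at their 5′ ends, with A often at position 10. TDRD9 is known from this pathway as a partner of the nuclear PIWI protein MIWI2.

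The 5 positions with the most listed sequences are shown as examples of the fullest ends. Sequences at 1 end share their first base and differ in length by definition, so that form is not a finding. Each is printed 5′ to 3′ from the deposited list, cut to 30 nt where a longer one was listed, with T for U. Capitals mark the first base and each base at which a listed sequence ended.
End 42828 (chr10:82870899-82870928, plus strand, 10 sequences of 21 to 30 nt): TagacctggataagagctgcTCATATTTAT
End 90490 (chr10:82918561-82918590, plus strand, 10 sequences of 22 to 31 nt): TgtggaaacatacaaacagaaCCTCTCTCC
End 6228 (chr10:82834299-82834328, plus strand, 9 sequences of 21 to 30 nt): TcccataacgagcagtaggaCtTAGTAAGT
End 12842 (chr10:82840913-82840942, plus strand, 9 sequences of 21 to 30 nt): TaagactggctgatgacgttCtCACAGGAT
End 116698 (chr10:82944769-82944798, plus strand, 9 sequences of 23 to 31 nt): TggactatcacctgaaagcaagCATACCCA
The number before each sequence is the position of its first base, counted from 1 at the start of the annotated transcript. All 5 lay in the 3′ UTR, and they were spread along it, the first of them 6228 nt and the last 116698 nt from the transcript start. They began with U in 5 of 5 cases. At ends 6228 and 12842 not every length between the shortest and the longest was listed. End 12842 stood among 21 other ends within 25 nt on either side, which held 68 further sequences, whereas end 42828 had 12 such neighbours with 21 sequences. The fullest end of the coding sequence, at position 338 in exon 3, had 8 sequences of 22 to 30 nt, with not every length in that range listed.
End 338 (chr10:82827221-82827250, plus strand): TgaaaacatcgacgagacgtcTgGAAACAT

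The members were almost all sense to the D10Wsu102e transcript. Of 19234 members, 19190 lay on the plus strand (99.8%, 99.7–99.8%) and 44 on the minus strand. An exact match to the transcript was found for 19012 members at 10088 distinct 5′ ends (98.8%, 98.7–99.0% of members), and 0 of them matched the transcript at more than 1 place. The matches placed the 4 exons on mm9 with a constant offset in each. Exon 1 (chr10:82822966-82823118, 153 nt) held 39 sequences, exon 2 (chr10:82824792-82824878, 87 nt) 67, exon 3 (chr10:82827124-82827260, 137 nt) 40, and exon 4 (chr10:82828449-82951250, 122802 nt) 18866. Sequences that cross a splice junction could not be listed, since each was given as 1 unbroken genome interval.

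Exons held far more ends than the introns between them, and the coding sequence was denser than the 3′ UTR. The transcript had 81.9 distinct ends per kb and the 3 introns together 3.13 per kb, a ratio of 26.1. The introns held 25 plus-strand sequences over 5106 nt, of which 22 lay in intron 1, 3 in intron 2 and 0 in intron 3. The 558-nt coding sequence, stop codon included, had 135 ends (242 per kb). The 3′ UTR had 9948 ends (81.2 per kb), which gave a ratio of coding sequence to 3′ UTR of 2.98 (95% interval from the end counts, 2.52–3.53). The regions differed in U content (20.6% and 29.2%), and at U positions alone the ratio was 3.51 (2.75–4.48). The 3′ UTR was not even along its length. Against its first 2913 nt alone, which had 164 ends per kb, the ratio was 1.48. Stretches of 25 bases that also occur in transcripts of other genes, described below, held few ends. They began at 21.5% of transcript positions, but at 0.1% in the first 1 kb, which holds the coding sequence. The ratio was not computed without them. The 38-nt 5′ UTR held 5 sequences, each at its own end. By number, nearly everything lay in the 3′ UTR, with 98.6% of matched members (98.4–98.7%), against 1.41% (1.25–1.59%) in the coding sequence.

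The 2 annotations used here differ in where the transcript stops, and most members lay past the shorter one. RefSeq (GRCm38.p6) ends D10Wsu102e at transcript position 3509, with a 3′ UTR of 2913 nt, whereas GENCODE extends the same exon to position 123179. Past the RefSeq end lay 17824 members, which is 93.8% (93.4–94.1%) of those matched. The density was 164 ends per kb in the 3′ UTR up to the RefSeq end and 79.1 per kb after it, a ratio of 2.07. Ends continued past the RefSeq end, but their density dipped there. The 1 kb window that holds the RefSeq end and the window after it each held fewer ends than the windows on either side of this pair. The next 10 kb as a whole had 135 ends per kb, a mean that does not show the dip. The last 10 kb of the transcript had 87.6 ends per kb. Sequences of the 3′ UTR up to the RefSeq end began with U in 69.3% of cases (66.2–72.3%) and those past it in 66.4% (65.7–67.1%). Each end had 1.92 sequences before that point and 1.88 after it.

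The density of ends varied along the transcript and was lower where the sequence recurs in other transcripts. In 123 windows of 1 kb the number of ends ran from 0 to 257, with a median of 72 and a mean of 82 (SD 58.6 over windows). The fullest was the window from position 12001 to 13000 (chr10:82840072-82841071), with 257 ends and 560 sequences that covered 97.5% of its bases. It was followed by positions 59001 to 60000 (chr10:82887072-82888071), with 214 ends, and 6001 to 7000 (chr10:82834072-82835071), with 211. The emptiest windows, from 56001 to 57000 (chr10:82884072-82885071) and from 103001 to 104000 (chr10:82931072-82932071), held 0 ends each. The next 4 were tied at 6 ends each: 23001 to 24000 (chr10:82851072-82852071), 57001 to 58000 (chr10:82885072-82886071), 105001 to 106000 (chr10:82933072-82934071) and 108001 to 109000 (chr10:82936072-82937071). A stretch of 25 bases was called recurring when it also occurred, on either strand, in a transcript of another gene. Genes that overlap the transcript were not left out, so sequence shared with Aldh1l2, on the opposite strand at its end, also counts. The window from 122001 to 123000, near that end, was recurring at 87.7% of positions and held 41 ends. Recurring stretches started at 0% of the positions in each of the fullest 2 windows, at 0.1% in the window from 6001, and at 77.6% and 81.7% in the windows with 0 ends. Of the 4 windows with 6 ends, those from 57001, 105001 and 108001 were recurring at 75.7%, 73.6% and 65.2% of positions, and the window from 23001 at 0%.

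**Figure D1:**
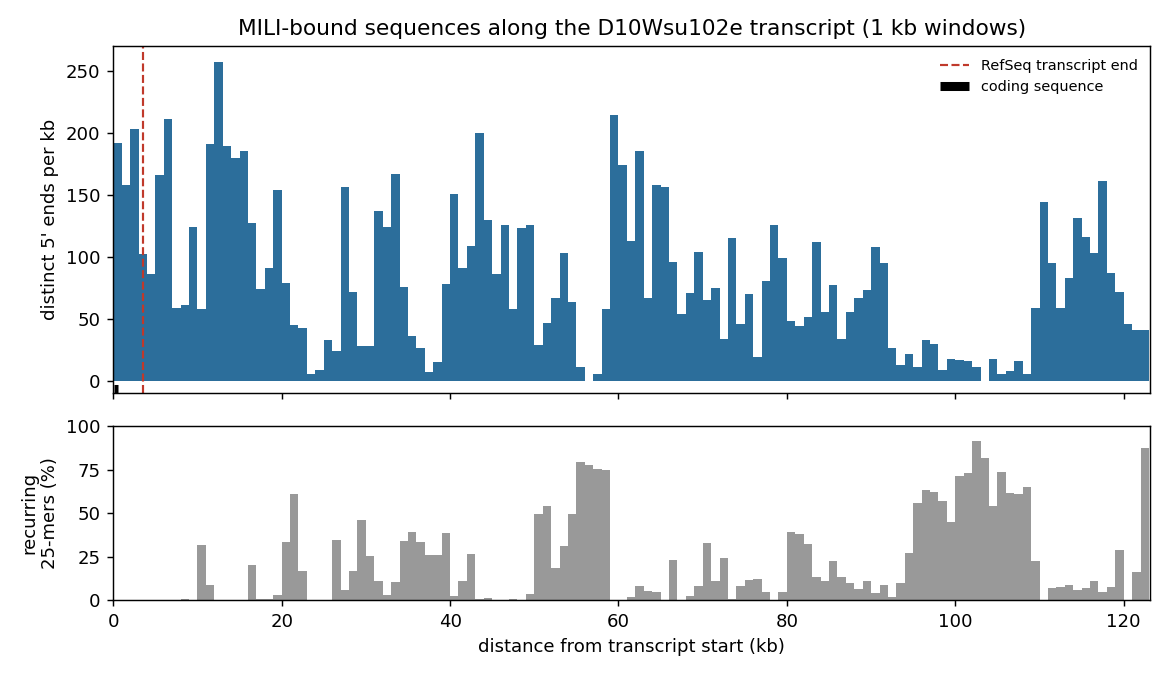
Distinct 5′ ends per 1 kb window of the D10Wsu102e transcript (upper panel) and the share of positions in each window that begin a 25-base stretch also found in a transcript of another gene (lower panel), both against the distance from the transcript start in kb. Ends ran from 0 to 257 per window, and the 20 windows with a recurring share of 50% or more held at most 58 ends.

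Split by recurrence, the 61 windows with under 10% recurring positions had a median of 115 ends (6 to 257), the 42 windows with 10 to 50% a median of 61.5 (7 to 167), and the 20 windows with 50% or more a median of 13.5 (0 to 58). Single positions showed the same order. Positions that begin a stretch found in D10Wsu102e alone held 103 ends per kb, and positions that begin a recurring stretch held 3.93 per kb (104 ends at 26488 positions). How reads that match the genome more than once were treated is not stated. Of members, 0.764% (0.646–0.898%) shared their first 20 nt with another listed position, against 0.841% (0.833–0.850%) of the rest of the list. No sequence was listed at more than 1 position, so this share cannot show how often members recur in the genome. The part that read placement plays in the profile was not tested. Across the 123 windows, the number of ends correlated with the recurring share at Pearson −0.63 and Spearman −0.66, and with the distance from the start at Pearson −0.38 and Spearman −0.35. With the U content of the window it correlated at Pearson −0.38 and Spearman −0.39, and with the GC content at Pearson 0.41 and Spearman 0.40, so windows richer in U tended to hold fewer ends, although U positions were used more often than other positions as 5′ ends. Among the 61 windows under 10% the correlation with distance was Pearson −0.33 and Spearman −0.36, and with U content Pearson −0.46 and Spearman −0.50. Windows come from 1 transcript and neighbouring ones resemble each other, so these coefficients are descriptions.

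In 10 equal segments of the transcript, taken from the start, the density was 137, 110.3, 72.9, 99.5, 74.1, 100.2, 68.1, 46.3, 24.8 and 85.5 ends per kb. The first segment was the densest and the ninth the sparsest, and the tenth was at a level between the third and the fourth. Counted over positions that begin a stretch found in D10Wsu102e alone, the segments had 142, 124, 91.6, 111, 127, 109.9, 80.6, 60.5, 57.6 and 99.5 ends per kb. The range narrowed on that count, and the fifth segment, 41.8% of which was recurring, moved from below the median of the segments to second place. The eighth and ninth segments stayed the sparsest on both counts.

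Listed sequences covered 51.4% of the transcript (63329 nt). The uncovered bases formed 925 gaps with a median of 27 nt, and 33 gaps of 300 nt or more held 15.9% of the transcript. In those 33 gaps 60.8% of positions were recurring, against 5.75% of the covered positions, and in 22 of the 33 at least 50% of positions were recurring. The longest gap was 2126 nt (chr10:82930247-82932372) and was recurring at 81.9% of its positions. A gap of 830 nt (chr10:82851345-82852174) was recurring at 0% of its positions by this measure, which did not look at genome sequence outside annotated transcripts.

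The 5′ ends of the locus fell on U far more often than the transcript supplied it. U made up 29.2% of the transcript and began 57.9% of the transcript's distinct ends. Of all U positions 16.3% (15.9–16.6%) were used as a 5′ end, against 5.77% (5.52–6.03%) of A, 4.94% (4.69–5.21%) of C and 3.77% (3.55–4.003%) of G positions. The share of U positions in use was 3.34 times (3.21–3.46) that of the other bases together. The preference was steeper at ends with several sequences: the ratio was 5.70 for ends with 2 or more sequences and 15.2 for ends with 4 or more. U positions were used more often than the others in 80 of the 80 windows of 1 kb with 50 or more ends. Among windows with fewer ends the order was reversed in the window from 102001 (11 ends, 1.08% of U against 1.11% of other positions). It was also reversed in the window from 104001 (18 ends, 1.66% against 1.86%). By region the ratio was 3.58 in the coding sequence and 3.35 in the 3′ UTR.

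**Figure D2:**
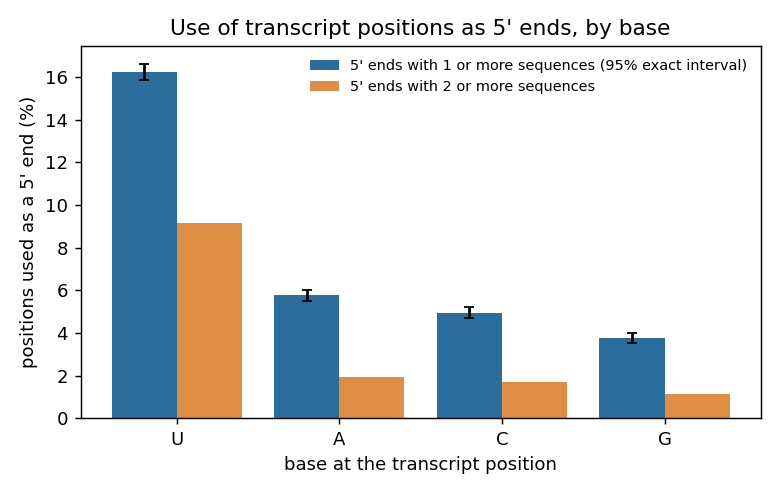
Share of the D10Wsu102e transcript's positions used as a 5′ end, by the base at the position, for all 5′ ends and for ends with 2 or more listed sequences. U positions were used in 16.3% of cases and G positions in 3.77%; error bars are exact 95% intervals.

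The share of members that began with U differed along the transcript. Among the 80 windows with 50 or more ends it ran from 46.0% to 84.0% of sequences, with a median of 67.6% and quartiles of 63.2% and 73.2%. The lowest was the window from 70001 to 71000, with 57 of 124 sequences, followed by the window from 59001 to 60000, with 208 of 416 sequences. The highest was from 113001 to 114000, with 137 of 163. The U content of these 3 windows was 28.3%, 20.2% and 32.6%. Across the 80 windows the 5′ U share correlated with the U content of the window at Pearson 0.44 and Spearman 0.42, as a description. The fifth segment (positions 49273 to 61590) had the lowest ratio of U to non-U use, 2.29, and the eighth the highest, 4.10.

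Other positions departed less from the transcript. A, at 25.99% of the transcript, stood at 28.3% to 32.9% of ends at positions 2 to 10, highest at position 5. At position 10 it stood at 30.6% of ends. Over sequences, A at position 10 was carried by 31.5% of members (30.9–32.2%), against 31.7% (31.7–31.8%) of the rest of the list. Members with a 5′ U carried it in 30.3% of cases (29.5–31.1%) and members without a 5′ U in 33.9% (32.8–35.1%). Just upstream of the 5′ end G was at 18.1%, below its 22.8% in the transcript, and U at 27.8% was close to its 29.2%. The base after the 3′ end was U in 27.3% of 12659 distinct 3′ ends, below the U content of the transcript.

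Compared with the rest of the list, the locus had a lower share of 5′ U and more sequences per end. U began 66.7% of members (66.1–67.4%), against 75.5% (75.4–75.5%) of the rest, and 58.3% of ends in the locus (57.4–59.3%), against 72.1% (72.0–72.1%). Of the remaining members, those starting with A were 14.6% (14.1–15.2%), those with C 10.6% (10.2–11.1%) and those with G 8.01% (7.63–8.40%). The locus had 1.87 sequences per end and the rest 1.42. Ends with 2 or more sequences made up 46.0% (45.0–47.0%) in the locus and 25.7% (25.7–25.8%) in the rest, and ends with 4 or more made up 11.2% (10.6–11.9%) and 4.02% (4.002–4.04%). The interval was chosen by its number of sequences, which favours more sequences per end. These contrasts in sequences per end therefore partly describe that choice and test nothing.

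The 5′ U share climbed with the number of sequences at an end, and the distance to the rest of the list closed. In the locus U began 48.1% of ends with 1 sequence (46.8–49.4%), 61.0% with 2, 72.7% with 3, 83.4% with 4, 88.8% with 5 and 94.5% (89.4–97.6%) of the 145 ends with 6 or more. The rest of the list stood at 68.9%, 78.3%, 83.6%, 87.8%, 91.2% and 94.0% at the same steps. The interval of the locus lay below the value of the rest for ends with 1 to 4 sequences and held it for ends with 5 and with 6 or more. A locus with many sequences places more of its ends in the higher steps, so the pooled shares mix the steps in different proportions.

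**Figure D3:**
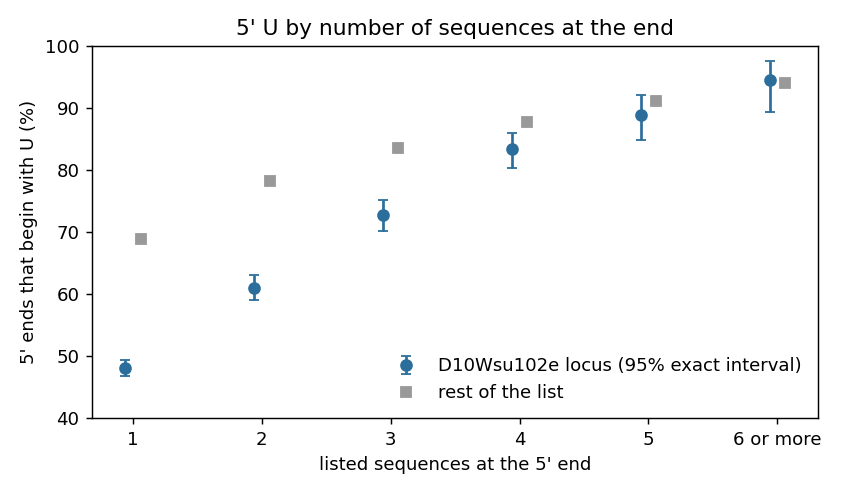
Share of 5′ ends that begin with U (vertical axis, from 40%) against the number of listed sequences that share the end, in the D10Wsu102e locus (circles, exact 95% intervals) and in the rest of the list (squares). In the locus the share runs from 48.1% for ends with 1 sequence to 94.5% for ends with 6 or more.

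Among the 510 clusters of joined 20 kb windows with 1000 or more sequences, the locus lay in the lower part for 5′ U and in the upper part for sequences per end. Its 5′ U share was higher than that of 144 clusters (median 69.6%, from 32.85% to 82.5%), and its sequences per end were higher than those of 361 (median 1.79). At 48.1%, the 5′ U share of its ends with 1 sequence lay above 115 of the clusters, whose median was 52.9%. Its 73.3 ends per kb ranked 24 of 510, and no cluster was longer than its 140 kb. These ranks have no test, since each cluster is a single pooled observation.

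Against 2 other clusters with sequences on 1 strand, the locus lay between them in 5′ U. The share was 66.7% (66.1–67.4%) in the locus, 64.3% (63.6–65.04%) in a minus-strand cluster with ends from chr7:6520332-6615374 and 74.8% (73.9–75.6%) in a plus-strand cluster with ends from chr2:92380035-92439936. Sequences per end were 1.87, 1.94 and 1.88 in the same order, and the shares of 26 to 28 nt were 72.0%, 72.7% and 72.5%. Ends with 1 sequence began with U in 48.1%, 45.4% and 56.5% of cases.

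Sequence lengths in the locus had the same mode as the rest of the list and a wider spread. The shortest member had 18 nt and the longest 32 nt. Members averaged 27.1 nt (SD 1.47 nt, n = 19234) and the rest 27.1 nt (SD 1.31 nt, n = 4886904), and 27 nt was the most frequent length in both. Sequences of 26 to 28 nt made up 72.0% (71.4–72.7%) of members and 77.0% (76.9–77.0%) of the rest. The difference lay on both sides of the mode, with 7.81% of members at 25 nt and 4.13% at 30 nt, against 6.504% and 3.05% of the rest. Each sequence is listed once, so those that share a 5′ end must differ in length. The locus had more sequences per end than the rest, and the part of this in the wider spread was not tested. Among the 510 clusters the median share of 26 to 28 nt was 73.5%, and 132 clusters lay below the locus. RNAs of about 28 to 30 nt had been cut from a gel, per the labels, so lengths carry that selection. Among lengths with 100 or more members the 5′ U share was lowest at 26 nt (63.7%) and 27 nt (63.9%) and higher at 29 nt (72.0%), 30 nt (76.6%) and 23 nt (80.0% of 105 sequences). Since the 5′ U share also rose with the number of sequences at an end, length and that number were not separated here.

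**Figure D4:**
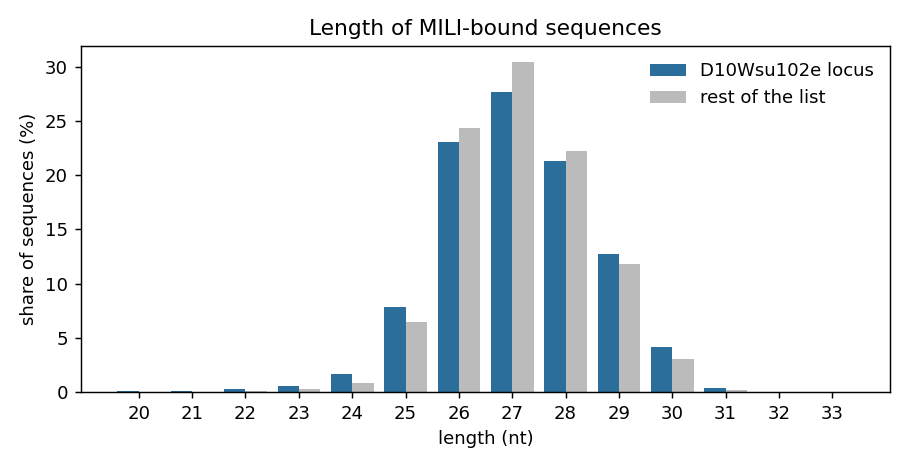
Share of sequences at each length (nt) in the D10Wsu102e locus (left bar of each pair) and in the rest of the list (right bar). Both peak at 27 nt, with 27.7% of the locus and 30.4% of the rest.

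Ends stood in close groups with no repeat distance at the length of a piRNA. Of the plus-strand ends, 57.3% had another end 1 nt away on either side. Pairs of ends 1 nt apart numbered 4046, or 3.24 times the mean of 1251 pairs at distances of 51 to 100 nt. The number fell with distance to 1170 pairs at 25 nt, and the mean from 20 to 40 nt was 1.01 times that from 51 to 100 nt. A 5′ end directly after a 3′ end, the trace left when a precursor is cut in successive steps, was not in excess. There were 1586 such pairs, against a mean of 1604 over distances of 2 to 20 nt (1544 to 1648), a ratio of 0.989 (95% interval from the pair count, 0.941–1.04). It was 1.01 in the chromosome 7 cluster and 1.03 in the chromosome 2 cluster. Distinct ends were counted once each, and 3′ ends trimmed after cleavage would not show in this count.

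**Figure D5:**
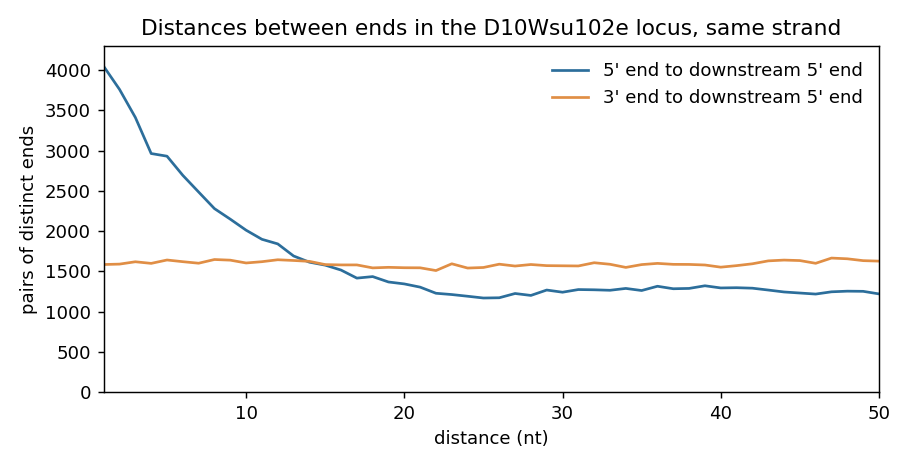
Pairs of distinct 5′ ends, and pairs of a distinct 3′ end with a downstream 5′ end, on the same strand of the D10Wsu102e locus, against their distance in nt. The 5′-to-5′ count is highest at 1 nt, with 4046 pairs, and levels off after about 20 nt, whereas the 3′-to-5′ count lies between 1511 and 1666 throughout.

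Opposite-strand partners were few, as only 41 ends lay on the minus strand. Of these, 18 overlapped at least 1 plus-strand sequence. They made 37 pairs in all with overlaps of 1 to 20 nt, of which 4 were at 10 nt, and overlaps of 2 nt and 8 nt also had 4 pairs each. No excess at 10 nt was detectable at this number. The 4 pairs at 10 nt are printed because they are the only ones at that overlap inside the interval. The overlapping 10 bases are in capitals and each sequence is read 5′ to 3′ on its own strand. Partners of the members elsewhere in the list were not searched for.
Pair 1 plus (chr10:82823046-82823075): TCGTCTTCTGtagcctgctcgcaggtcacg
Pair 1 minus (chr10:82823029-82823055): CAGAAGACGAagaaacaccaggaccgg
Pair 2 plus (chr10:82895078-82895105): TTATCAGTTTttaaagtatctggccttc
Pair 2 minus (chr10:82895060-82895087): AAACTGATAAtggccctgcgtatacatc
Pair 3 plus (chr10:82907804-82907831): AGAATTCACAcacggttcaggcacgagc
Pair 3 minus (chr10:82907789-82907813): TGTGAATTCTgattggatgagttgg
Pair 4 plus (chr10:82940095-82940121): TGGTTCTTTAtgcataggaaggggctg
Pair 4 minus (chr10:82940076-82940104): TAAAGAACCAtggagataaaggtattaag
Pair 1 lay in the coding sequence, at transcript position 81, and the other 3 in the 3′ UTR, at positions 67007, 79733 and 112024. The first 20 nt of the minus-strand sequence of pair 3 occurred at 2 listed positions.

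The 222 members that did not match the transcript were sparser and began with U more often than those that did. They were 178 plus-strand and 44 minus-strand sequences. Past the annotated end of the transcript, 135 plus-strand sequences ran on to the edge of the interval, at 12.1 ends per kb over 8750 nt. The last 1 kb of the transcript had 31 ends and the first 1 kb after it 12, a ratio of 2.58. Upstream of the transcript lay 18 plus-strand sequences at 5.40 ends per kb. U began 86.5% (80.6–91.2%) of the 178 plus-strand members off the transcript and 84.1% (69.9–93.4%) of the 44 minus-strand members. Among members matched to the transcript it began 66.5% (65.8–67.2%). Ends off the transcript on the plus strand had 1.29 sequences each, against 1.88 on the transcript, and among all ends of the locus with 1 sequence U began 48.1%.

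The neighbouring gene Aldh1l2, which encodes a mitochondrial folate enzyme, lies on the opposite strand and overlaps the end of the annotated transcript. Of the 222 members, 68 plus-strand sequences were antisense to Aldh1l2 transcripts and 14 minus-strand sequences were sense to them, 17 minus-strand sequences were antisense to D10Wsu102e, and 127 matched no annotated transcript; a few minus-strand sequences count under both genes. Aldh1l2 as a whole had 16 sense sequences in the list. Slc41a2, a magnesium transporter gene on the other side, had 131. The first and last 20 kb windows of the interval held 3054 and 1862 sequences and its emptiest 1018. The windows just outside held 101 sequences upstream and 145 downstream, of which 89.1% and 98.6% were on the plus strand.

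Other genes with long annotated 3′ UTRs differed widely from each other. Among 53 protein-coding genes with a 3′ UTR of 10 kb or more, the density in the 3′ UTR ran from 0 to 161 ends per kb with a median of 5.26, and its 81.2 ends per kb ranked 10. Its coding sequence, at 242 ends per kb, ranked 1 of the 53, whose median was 11.2. The 5 genes next in length of 3′ UTR were D1Ertd622e (39397 nt), Zbtb20 (23858 nt), Hnrnpr (19419 nt), Grin2b (18865 nt) and Vmn2r53 (18619 nt). Their 3′ UTRs held 3.30, 64.1, 1.13, 2.17 and 0 ends per kb. Zbtb20, a zinc finger transcription factor gene, was the densest of these 5 in the 3′ UTR and had 10.3 ends per kb in its coding sequence.

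Set against other genes with many ends, D10Wsu102e had a low ratio of U to non-U use. Of 1534 protein-coding genes with 200 or more ends, D10Wsu102e among them, 101 had a ratio below its 3.34, and the median was 4.88. Among those that also had a 3′ UTR of 10 kb or more, Pou2f1 (3.51), Aak1 (3.65) and Ago3 (3.90) came next above it. The highest of that set was Ptar1 (10.7). Since the ratio could depend on how fully a transcript was sampled, it was also set against the 435 genes within 20% of its ends per kb. There 21 had a lower ratio, with a median of 4.76 and quartiles of 4.18 and 5.28. In those 435 genes its U positions were used less often than in the median gene (16.3% against 19.2%, with 51 genes lower) and its other positions more often (4.87% against 4.12%, with 358 genes lower). Within the same 435 genes its 1.88 sequences per end ranked 15, and the median was 1.71. The match on ends per kb therefore did not equalise sampling, and the part of sampling in the ratio of U to non-U use was not tested. The ratio of coding sequence to 3′ UTR density, 2.98, ranked 96 of 1507 genes with at least 100 nt in each region, whose median was 0.790. That rank rests on the whole annotated 3′ UTR, recurring stretches included. With the 3′ UTR cut at the RefSeq end the ratio was 1.48, which was not ranked. Tdrd9 had 137 sequences, and since the genotypes are pooled this checks no label.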

How the data were processed

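Per the labels' protocols, MILI was immunoprecipitated from lysed testes, its RNAs near 28 to 30 nt were isolated on a gel, and an Illumina kit for small RNAs was used. Positions are on mm9, per the submitters' processing notes. Aligner, mismatches and filters: not given in the sources used here. The deposited table has 5 columns and no unit but genome positions, taken as 1-based with both ends included, pooled over 4 libraries, so the count models and the genotype comparison planned could not be run, nor could leaving out a replicate. 

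From the table, members were placed on the GENCODE M21 transcript of D10Wsu102e by exact match; no coordinate was converted between builds. In all, 21901 genes were searched, each by its transcript with the longest coding sequence, and matches had to lie on the gene's chromosome and strand. Recurring stretches were 25-mers found on either strand in transcripts of other genes, overlapping genes included, and no repeat annotation was used. Members, lists and comparisons were chosen with earlier results of these data known. Named items follow a rule: the gene, other genes that members match, the 5 fullest ends, the 3 fullest and 3 emptiest windows (all 4 tied for the last place are given), the 5 genes next in 3′ UTR length and Tdrd9. Other windows, gaps and pairs, and the genes Pou2f1, Aak1, Ago3 and Ptar1, were chosen after their values were seen. Matching, base use and distance counts were tested on simulated data with planted answers. Software: matplotlib 3.10.9, scipy 1.17.1, pandas 2.3.3 and numpy 2.4.6 under Python 3.11.15.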

Additional observations from a re-analysis of the deposited data

How the results depend on the processing

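Of 36 alternatives over 11 results, 31 stayed within the interval of the reported value or within 1.5 times of a count. Counting distinct 5′ ends in place of sequences gave 10267 in place of 19234 members, a 5′ U share of 58.3% in place of 66.7%, and 86.9% of ends with a sequence of 26 to 28 nt in place of 72.0% of sequences. Counting sequences in place of ends gave a median of 132 per 1 kb window in place of 72. With only ends of 2 or more sequences, the ratio of U to non-U use was 5.70 in place of 3.34. These shifts come from what was counted. Keeping 24 to 31 nt, leaving out recurring first 20 nt, 500-nt and 2000-nt windows and distances up to 50 nt changed no result by more than these limits. No paired analysis was possible because the list has no library labels, and no replicate could be left out for the same reason. Depth is unknown, and a listed sequence may rest on a single read.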
